A study of Rattus norvegicus with 241 samples.

Results

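CXCL1, CXCL2, CXCL3 and CXCL6, 4 chemokines that act on the receptor CXCR2, and CSF3, the cytokine also known as G-CSF, were followed through all bulk and single-cell RNA-seq tables of mammary glands from rats given TGFBRi or vehicle. They are 5 of the 21707 gene symbols in the tables and were matched by symbol regardless of case. Of these symbols 16820 occur in the bulk tables and 18566 in the single-cell tables, and all 5 genes occur in both. The genes were chosen with their levels by cell type and their treatment effects in these tables in view, so that the tests on them describe the fits and are no independent support.

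TGFBRi was LY2157299 (galunisertib), a small-molecule inhibitor of the TGFBR1 kinase, given by mouth at 75 mg/kg in 2 doses a day. Young virgin rats were dosed for 10 days, inbred ACI rats from 35 days and outbred SD rats from 24 days of age. The glands were taken at day 0, the end of dosing, and in ACI rats also at day 7 and day 14. Cells sorted as basal (CD24+CD29high), luminal (CD24+CD29low) and CD45+ were used for bulk RNA-seq, from 3 vehicle and 3 TGFBRi rats at each ACI time point and from 4 and 4 SD rats. Adult ACI rats of 18 to 24 weeks, virgin or parous, received the same dosing (2 to 4 rats per group and fraction). In the NMU experiment SD rats dosed from 21 days of age received 50 mg/kg of the carcinogen NMU, and glands of 3 tumor-bearing vehicle, 3 tumor-bearing TGFBRi and 3 tumor-free TGFBRi rats were sorted, together with EPCAM+ and CD45+ cells of tumors from 3 rats of each treatment, all 87 days after NMU. In the E2 experiment dosing of ACI rats began at 38 days of age and lasted 21 days, and luminal and CD45+ cells came from rats with an empty implant (4 vehicle, 3 TGFBRi, called without E2 here) or with a 37 mg estradiol (E2) implant (4 tumor-bearing vehicle, 2 tumor-bearing TGFBRi and 4 tumor-free TGFBRi). These glands were taken long after dosing, at days that the labels call variable, once tumors had developed. The sequenced vehicle rats given NMU or E2 all bore tumors, so that a tumor-free TGFBRi rat was always set against a tumor-bearing vehicle rat. Single cells came from day 0 rats: sorted basal and luminal cells of 3 vehicle and 3 TGFBRi ACI rats and of 3 and 6 SD rats, and unsorted whole glands of 3 and 6 SD rats.

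CXCL1, CXCL2, CXCL3 and CXCL6 are small secreted proteins that bind the receptor CXCR2 on neutrophils and draw these cells out of the blood, and CSF3 drives the production and release of neutrophils from the bone marrow through its receptor CSF3R. All of them are early inflammatory genes, whose transcription in epithelial cells, fibroblasts, endothelial cells and macrophages is typically switched on through NF-κB after signals such as IL-1, TNF or IL-17. Tissue dissociation can also start transcription of such genes. The glands were digested with collagenase before sorting or capture.

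In the rat assembly GRCr8, CXCL2, CXCL1, CXCL3 and CXCL6 lie on chromosome 14 in this order, with PF4 and PPBP between CXCL3 and CXCL6, and CSF3 lies on chromosome 10. The 4 chemokines were each lower after TGFBRi in most whole-gland classes, by unlike amounts, as described below. The 100 bases before the start are shown for the 3 of them with a RefSeq promoter entry. Capitals mark the bases that match the NF-κB consensus.
CXCL1, chr14:17479322-17479421, minus strand: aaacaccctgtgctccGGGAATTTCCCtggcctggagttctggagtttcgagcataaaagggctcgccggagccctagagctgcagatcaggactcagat
CXCL2, chr14:17467256-17467355, minus strand: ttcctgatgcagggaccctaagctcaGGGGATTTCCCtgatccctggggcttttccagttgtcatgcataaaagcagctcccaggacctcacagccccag
CXCL6, chr14:17596418-17596517, minus strand: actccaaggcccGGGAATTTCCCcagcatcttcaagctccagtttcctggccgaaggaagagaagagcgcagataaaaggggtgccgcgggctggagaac
Each window holds 2 overlapping matches, which begin 84 and 83 bases before the start in CXCL1, 74 and 73 in CXCL2, and 88 and 87 in CXCL6. Searched on both strands, such a match occurs in 2.51% of 33469 promoters in the same window (839 promoters). The AP-1 motif TGANTCA (2.47% of windows) and TATAAA (5.78% of windows) were not matched in the 3 windows. The letters CATAAAA (1.52% of windows) occur in the windows of CXCL1 and CXCL2 and not in that of CXCL6.

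The 202 bulk samples held 4194912 to 52314784 reads on genes, and the single-cell tables held 16762 sorted ACI cells, 39766 sorted SD cells and 103524 whole-gland cells, with a median of 2820 to 15941 UMIs per cell in a library. Cell barcodes found in more than 1 library numbered 35 of 16727 in sorted ACI, 216 of 39550 in sorted SD and 6127 of 97157 in whole glands. Cell classes were named from marker genes after clustering without the 5 genes, and 8431 whole-gland cells stayed unnamed and 3999 mixed. The descriptions of the basal and luminal samples of one young ACI vehicle rat call it treated whereas their titles and treatment fields call it control, and it was taken as vehicle. Bulk levels are given in CPM (reads scaled to a common total of reads on genes), and treatment effects as log2 fold changes of TGFBRi over vehicle with their standard errors (SE).

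Luminal cells were the fraction with the most CXCL1 in bulk. In young ACI vehicle rats at day 0, CXCL1 measured 7097, 7254 and 7924 CPM in luminal cells, 872, 903 and 1312 in basal cells, and 685, 2356 and 2372 in CD45+ cells. The luminal values lay above all values of the other fractions, while basal and CD45+ values overlapped. SD rats of day 0 ran higher, with CXCL1 at 19564 to 39688 CPM in luminal cells (median 34317), 2436 to 6209 in basal cells and 1715 to 7756 in CD45+ cells of vehicle rats. Strain, age and batch cannot be told apart in this contrast. In NMU-treated SD rats the luminal cells of tumor-bearing vehicle rats held 18205, 33796 and 55296 CPM of CXCL1, whereas EPCAM+ tumor cells of vehicle rats held 2646, 3197 and 3771. The tumor cells thus lay below every luminal sample of those rats. In CD45+ cells of glands CXCL1 ranged from a median of 219 CPM in tumor-bearing vehicle rats with E2 to 13087 in tumor-free NMU-treated TGFBRi rats.

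CXCL2, a second CXCR2 ligand typical of macrophages and neutrophils, had a median of 846 CPM in luminal, 501 in CD45+ and 16.0 in basal cells of young ACI vehicle rats, and of 2666, 424 and 49.6 in SD rats. CXCL3 had medians of 80.7, 220 and 3.41 in the luminal, CD45+ and basal cells of the ACI rats, and of 751, 370 and 60.7 in SD rats. In the ACI rats CD45+ cells had the highest median, but their 60.7 to 402 CPM overlapped the luminal 63.9 to 83.9. The highest vehicle median of CXCL3 was 2938 CPM, in luminal cells of tumor-bearing NMU-treated rats. CXCL6 was scarce everywhere, with medians of 2.80 and 18.6 CPM in luminal cells of young ACI and SD vehicle rats and no group median above 32.5. It has no row in the table of CD45+ tumor cells. Among the sorted fractions, luminal cells held the most CSF3, at 104.4, 122 and 152 CPM in young ACI vehicle rats. In SD vehicle rats they held 882 to 3885 (median 2680). Basal cells of the same rats had CSF3 medians of 50.6 and 199, and CD45+ cells 31.5 and 231. The basal and luminal sorts were gated to leave out endothelial cells. Sorted SD single cells still held a vascular endothelium-like cluster of 606 cells, 591 from TGFBRi and 15 from vehicle rats. Over all rats CSF3 in it was 4.00 UMIs per 10000 UMIs. How far endothelial cells enter the bulk sorts was not tested.

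**Figure D1:**
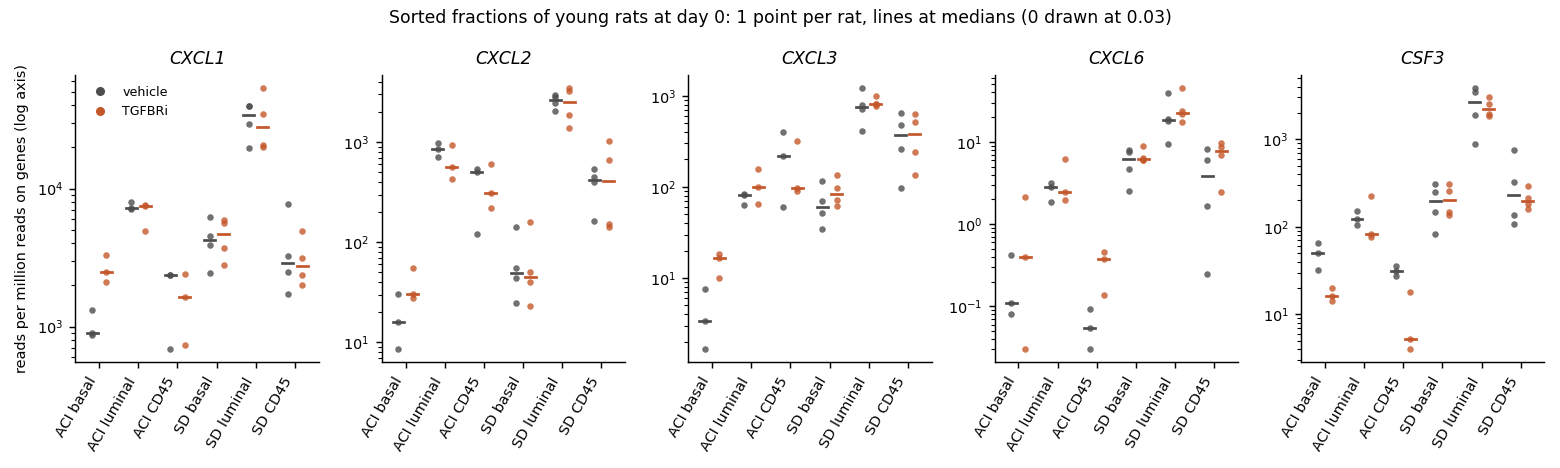
CPM (log axis) of the 5 genes in the basal, luminal and CD45+ sorts of day 0 glands, ACI and SD, with 1 point per rat (vehicle grey, TGFBRi orange), lines at the medians and 0 drawn at 0.03. Luminal cells stand highest for CXCL1 in both strains, and SD luminal cells stand above ACI luminal cells for every gene in vehicle rats.

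In bulk few tests of TGFBRi against vehicle passed, at about the share seen over all genes. Of 159 tests of a gene in a fraction (32 comparisons), 1 passed an adjusted p of 0.05 by limma, against 0.588% of 446580 tests over all genes. With 2 to 4 rats per group this does not show that the genes stayed the same, and the wider differences are given below. Of the 159 log2 fold changes 74 were above and 85 below 0, with a median of −0.05, and 15 had an unadjusted p under 0.05. The groups did not overlap in 13 tests, 6 higher and 7 lower, where 10.7% of all tests do not overlap. In young SD rats none of the 15 tests passed by limma, edgeR or DESeq2, 0 had an unadjusted p under 0.05, and no gene of the whole table passed by limma.

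The gene that passed was CSF3, in basal cells of young ACI rats at day 0, where 3.34% of all genes passed and 0.837% passed lower. CSF3 measured 1015, 495 and 723 normalized counts in vehicle and 262, 214 and 216 in TGFBRi rats, with all TGFBRi values below the vehicle values (log2 fold change −1.63, SE 0.40, adjusted p = 0.0407 by limma). It lost the call when any of 5 of the 6 rats was left out (adjusted p = 0.0574 to 0.156) and by edgeR (adjusted p = 0.0582). The 4 chemokines lay on the other side of 0 in the same samples, none called. CXCL1 measured 13603, 13822 and 18768 normalized counts in vehicle and 32381, 32744 and 44521 in TGFBRi rats (1.25, SE 0.70, adjusted p = 0.270 by limma), and CXCL3 25.7, 52.2 and 107.4 against 131, 220 and 279 (1.91, SE 0.77, adjusted p = 0.137). Neither set of groups overlapped, as was true of 32.1% of all genes in this comparison. CXCL2 overlapped, at 250, 130 and 433 normalized counts in vehicle and 739, 409 and 429 in TGFBRi rats (1.06, SE 0.71, adjusted p = 0.36 by limma), and so did CXCL6 (0.74, SE 1.3, adjusted p = 0.760).

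Markers of other cells moved beside these values. Summed over 9 genes, the basal list held 16521 to 18973 CPM in vehicle and 6620 to 15115 in TGFBRi rats, with KRT14 at 3794 to 5364 and 1178 to 3365. The 12 neutrophil genes summed to 3.73 to 14.6 and 24.2 to 82.4 CPM, PTPRC (CD45) to 0.0532 to 7.14 and 15.5 to 20.7, and the 12 immediate early genes to 34111 to 40187 and 49436 to 56620. Among the neutrophil genes CSF3R alone passed, higher (0 to 0.0549 against 0.462 to 5.48 CPM, adjusted p = 0.00693 by limma), and S100A8 lay at 0 to 0.426 and 0 to 1.19. Their part in the CSF3 result was not tested. In bulk samples fewer cells of a type and less RNA per cell cannot be told apart.

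CD45+ cells of the same rats gave CSF3 values of 722, 792 and 823 normalized counts in vehicle and 364, 82.2 and 128 in TGFBRi rats, again without overlap, as for 16.5% of all genes (−2.30, SE 0.63, adjusted p = 0.0581 by limma). These sorts also differed in KRT14, at 58.3 to 170 CPM in vehicle and 1.31 to 4.38 in TGFBRi rats, in the basal list, at 193 to 503 and 7.64 to 18.7, and in S100A8, at 3.01 to 6.87 and 72.4 to 265. Whether these cells account for the CSF3 values was not tested. DESeq2 on the recovered reads called CSF3 here (−2.02, adjusted p = 0.0244), whereas the adjusted p was 0.0538 to 0.218 in the 11 other alternatives, with log2 fold changes from −1.84 without the TGFBRi rat at 82.2 to −2.91 without the one at 364.

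Other wide differences did not pass. In luminal cells of NMU-treated rats that bore tumors CXCL3 measured 36092, 81752 and 137445 normalized counts in vehicle and 4120, 12286 and 30131 in TGFBRi rats, without overlap, as for 16.4% of all genes (−2.68, SE 0.63, adjusted p = 0.0642 by limma). DESeq2 called it (−2.42, adjusted p = 0.00283), and so did limma without the vehicle rat at 36092 (−3.20, adjusted p = 0.00380). The 10 other alternatives did not call CXCL3 (adjusted p = 0.0589 to 0.425), and its log2 fold change ran from −1.94 without the TGFBRi rat at 4120 to −3.38 without the one at 30131. Tumor-free TGFBRi rats of that experiment, with 38601 to 58375 normalized counts of CXCL3 in luminal cells, overlapped the vehicle range. In luminal cells of rats with E2 and tumors, 2 TGFBRi rats were set against 4 vehicle rats. CXCL1 stood at −1.60 on the log2 scale (adjusted p = 0.669 by limma), CXCL2 at −1.84 (0.464) and CSF3 at −2.73 (0.569). Each was without overlap, as for 14.8% of all genes. The 2 TGFBRi rats lay apart, at 112304 and 40727 normalized counts of CXCL1 (vehicle 135114 to 317147) and 3125 and 980 of CSF3 (vehicle 3586 to 35189). In CD45+ cells of E2 rats, tumor-free TGFBRi against tumor-bearing vehicle rats, CXCL1, CXCL2 and CXCL3 stood at 1.95, 2.02 and 2.03 (adjusted p = 0.793 by limma). The groups overlapped for each, and 1 TGFBRi rat stood at 13462 normalized counts of CXCL3 (others 1326 to 2379).

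**Figure D2:**
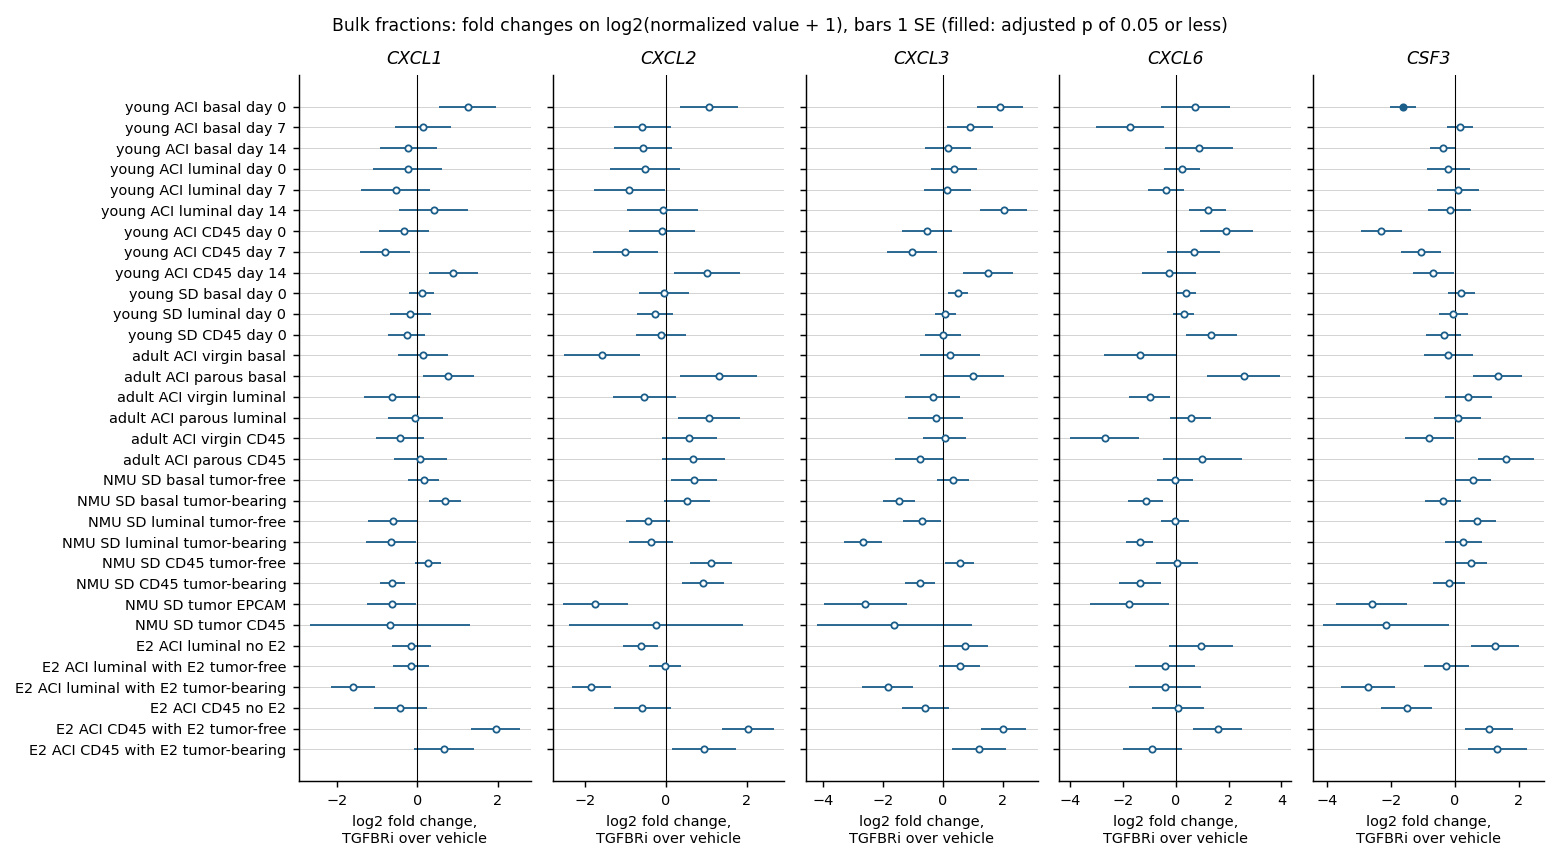
Log2 fold changes of TGFBRi over vehicle in the 32 bulk comparisons, on log2 of normalized counts plus 1, with bars of 1 SE and filled points for an adjusted p of 0.05 or less. Only CSF3 in basal cells of young ACI rats at day 0 is filled, at −1.63, and points of each gene lie on both sides of 0.

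The treatment effect of a gene was compared between days and by parity in 60 tests, of which none passed (limma, against 0.0977% of all tests passing; 4 had an unadjusted p under 0.05, and edgeR and DESeq2 also gave 0). The lowest p was that of CSF3 in ACI basal cells, where the day 0 effect lay 1.81 below the day 7 effect on the log2 scale (value −1.81, SE 0.57, adjusted p = 0.645). Vehicle rats were also compared across conditions in 55 tests, of which none passed (limma, against 0.286% of all tests; 7 had an unadjusted p under 0.05, and edgeR and DESeq2 gave 0). CXCL6 in ACI CD45+ cells came to 0, 1.23 and 2.17 normalized counts at day 0 and 15.3 to 21.1 at day 14 without overlap, as in 13.6% of all tests (3.33, adjusted p = 0.156 by limma). CSF3 of tumor-bearing vehicle rats with E2 stood at 1.98 in luminal and −2.15 in CD45+ cells against vehicle rats without E2 (adjusted p = 0.174 and 0.256 by limma). Estradiol and tumor status changed together in these rats.

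The unsorted SD glands showed which cells carried each gene. Levels are UMIs per 10000 UMIs of a cell class and rat. Each molecule is counted once, but how evenly the genes are captured was not tested. Among the named classes CXCL1 had its highest median in luminal progenitor-like cells, at 158, 167 and 235 in the 3 vehicle rats. Every rat there lay above every fibroblast-like value, though not above those of all classes. Fibroblast-like (median 152), pericyte-like (128), macrophage-like (125) and venular endothelium-like cells (111) followed, of which pericyte-, venular endothelium- and macrophage-like cells reached 211, 219 and 170 in 1 rat and so overlapped them. Neighbours in this order overlapped down to lymphatic endothelium-like cells at 66.8. Below these came Schwann-like (25.4), mature luminal-like (19.7) and dendritic-like cells (11.9), and all lymphoid classes were under 3.3. Of the 2 luminal progenitor-like clusters, 1 was led by the milk protein genes CSN2, LALBA and WAP and the other by THRSP, OLAH and CSN1S2B, and both had CSN3 and CSN1S1 among their leading genes. The macrophage-like class joined 2 clusters of unlike CXCL1 level. In vehicle rats the one led by PF4 and C1QA held 138 to 322 (median 303), a higher median than luminal progenitor-like cells. The one led by MMP12 held 34.9 to 62.1.

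CXCL2 was highest in macrophage-like cells, at 149, 185 and 248 UMIs per 10000, and overlapped with luminal progenitor-like cells at 112, 122 and 184. CXCL3 had another order, with mature luminal-like cells first at 66.2, 109 and 135, then a luminal cluster of mixed markers (median 62.9), macrophage-like (48.2) and luminal progenitor-like cells (37.0), each overlapping its neighbour in this order, and all other classes at a median of 9.22 or less. Within the macrophage-like class, the cluster led by PF4 and C1QA had CXCL3 at 31.7 to 221 (median 171) in vehicle rats. It overlapped mature luminal-like cells and had the higher median. The luminal cluster of mixed markers was led by CLCA1, WFDC2 and CLDN7, had CITED1 of the mature list and no progenitor marker among its 10 leading genes, although 9 of 10 progenitor and 7 of 10 mature markers were detected in it, and its median UMIs per cell were 6.02 times the median of the cells' libraries. No doublet caller was run, so that doublets in it were not tested. CXCL6 had the same leading class at a lower level, with 1.62, 4.38 and 6.39 in mature luminal-like cells and 0.577 to 1.14 in luminal progenitor-like cells. CSF3 was highest in venular endothelium-like cells, a cluster led by SELP, GLYCAM1 and SELE, at 14.2, 31 and 68.5 UMIs per 10000. Vascular endothelium-like cells came next at 1.26 to 15.2, which overlapped, and luminal progenitor-like cells at 1.61 to 3.47.

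Of all CSF3 UMIs of a vehicle gland, venular endothelium-like cells held a median of 46.9% (38.2 to 47.4% over 3 rats), luminal progenitor-like cells 8.60%, basal-like cells 9.19% and vascular endothelium-like cells 9.18%. For CXCL1 the largest medians were those of fibroblast-like (20.3%, range 12.2 to 36%) and luminal progenitor-like cells (19.5%, 10.7 to 35.5%), which overlapped. Luminal progenitor-like cells held a median of 40.4% of CXCL2, and mature luminal-like cells 23.8% of CXCL3 and 28.1% of CXCL6. Among cells without a class, a cluster of 1676 cells led by IL1B, G0S2, S100A9 and S100A8 held 40.1 UMIs per 10000 of CXCL2 over all rats and 13.4 of CXCL1. A cluster of 347 cells led by CCL19 and CXCL13 held 126 of CXCL1, 18.6 of CXCL3 and 2.98 of CXCL6, also over all rats of both arms. On this measure the larger mature luminal-like cluster held less CXCL6 (1.71) and more CXCL3 (45.5). Neither of the clusters without a class passed the rule for a name.

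UMIs of these genes were also found in lymphoid classes, which should hold little of them. A CXCL1 UMI was found in 93% of luminal progenitor-like cells of vehicle rats (median 4567 UMIs per cell) and in 25.7% of B-like cells (median 2302). After each cell was thinned to 1000 UMIs, leaving out 602 and 36 shallower cells, the shares were 90.1% and 12.2%. The CSF3 shares were 73.4% in venular endothelium-like cells (median 4849 UMIs per cell) and 1.59% in B-like cells, and 60.4% and 0.195% after thinning. For CXCL6 the share in luminal progenitor-like cells was 5.67% against 0.127% in B-like cells, and 2.20% against 0.0651% after thinning.

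**Figure D3:**
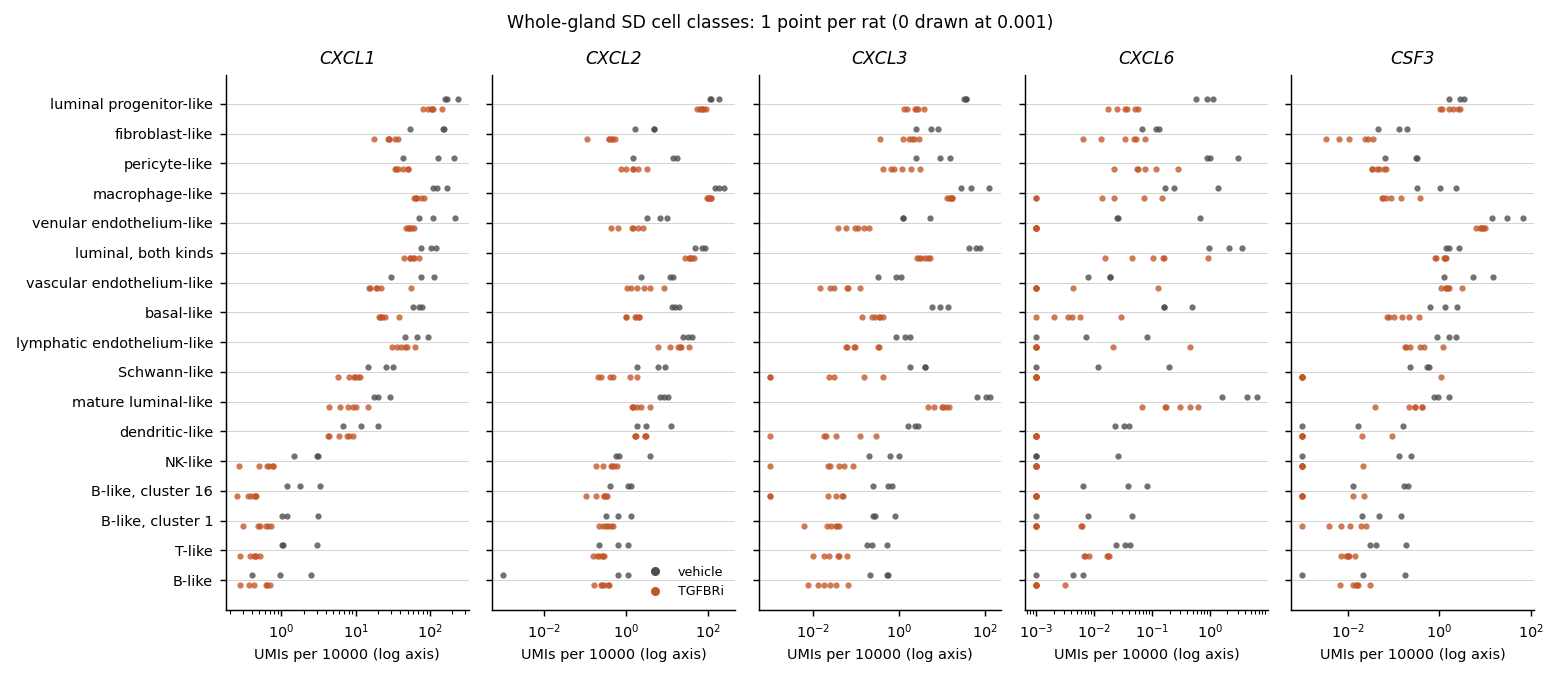
UMIs per 10000 UMIs (log axis) of the 5 genes in the cell classes of whole SD glands, with 1 point per rat, ordered by the vehicle median of CXCL1. By vehicle median, luminal progenitor-like cells lead for CXCL1 and macrophage-like cells for CXCL2. Mature luminal-like cells lead for CXCL3 and CXCL6, and venular endothelium-like cells for CSF3, by the same measure. In TGFBRi rats macrophage-like cells lead for CXCL3, and TGFBRi rats lie lower in most classes.

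In whole glands all 5 genes were lower after TGFBRi in most classes. Of 81 tests of a gene in a class (17 classes), 73 passed an adjusted p of 0.1 by edgeR, all lower, where 10.8% of all tests passed lower. CXCL1 passed in 17 of 17 classes, CXCL2 in 16 of 17, CXCL3 in 17 of 17, CXCL6 in 9 of 13 and CSF3 in 14 of 17. The median log2 fold change was −2.35 (−2.28 with CXCL6 at its bound in 2 classes where no TGFBRi cell held a UMI), and 1 test was above 0, that of CXCL6 in lymphatic endothelium-like cells (0.79, adjusted p = 0.765, but −2.20 without TGFBRi rat 2 and 2.74 without the second vehicle rat). The rats did not overlap in 50 tests, all lower, where 6.75% of all tests are lower without overlap. B-like cells made 3 of the 17 classes, since 2 of their clusters were kept apart by number. The log2 fold changes of the 5 lymphoid classes, whose levels were 0 to 3.88 UMIs per 10000 in vehicle rats, ran from −4.27 to −1.25 with a median of −2.42 and passed in 21 of 22 tests, beside a median of −2.28 and 52 of 59 tests in the other 12 classes. Without the second vehicle rat 13 of the 22 lymphoid and 46 of the 59 other tests passed. How far RNA free in the droplets enters the values of each class was not tested.

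In luminal progenitor-like cells CXCL1 fell from 235, 167 and 158 UMIs per 10000 in vehicle rats to 79.4 to 143 in the 6 TGFBRi rats, without overlap (log2 fold change −0.98, SE 0.23, adjusted p = 0.0141 by edgeR). Without the first vehicle rat the CXCL1 call was lost (−0.64, adjusted p = 0.125). CXCL2 fell from 184, 122 and 112 to 55.7 to 92.8 (−1.11, adjusted p = 0.0091). CXCL3 and CXCL6 changed far more. CXCL3 went from 33.6, 37.0 and 37.0 to 1.35 to 3.97 (median 2.51), 16.1-fold lower (−4.01, SE 0.30, adjusted p = 6.69e-05 by edgeR), and CXCL6 from 0.577 to 1.14 to 0.0171 to 0.0562 (−4.69, SE 0.30, adjusted p = 4.28e-05). CSF3 overlapped between the arms, at 1.61, 2.81 and 3.47 against 1.03 to 2.90 (−0.65, SE 0.35, adjusted p = 0.218). In this class 14.6% of all genes passed lower.

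Mature luminal-like cells, the estrogen receptor-bearing luminal class, had the highest CXCL3 median of the named classes in vehicle rats. In TGFBRi rats macrophage-like cells did (16.2 against 10.3). In mature luminal-like cells CXCL3 fell from 66.2, 109 and 135 to 4.90 to 14.4 (−3.43, SE 0.29, adjusted p = 2.43e-05 by edgeR). The other log2 fold changes were −3.88 for CXCL6, −2.14 for CXCL2, −2.10 for CSF3 and −1.41 for CXCL1 (adjusted p = 0.000373, 0.000319, 0.00562 and 0.00478 by edgeR), each without overlap, where 15.3% of all genes passed lower. The same cluster held 97% of this class in vehicle and 96.7% in TGFBRi rats.

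Basal-like cells had CXCL1 at 70.9, 78.8 and 58.4 UMIs per 10000 in vehicle and 20.4 to 37.9 in TGFBRi rats (−1.48, adjusted p = 0.000189 by edgeR). CXCL3 fell from 6.08 to 13.9 down to 0.141 to 0.430, a log2 fold change of −4.99 (SE 0.32, adjusted p = 7.81e-06), and CSF3 fell by 3.18 (adjusted p = 0.000475). This class lay mostly in one cluster in vehicle rats (66.1% of cells), of which 56.3% came from 1 library, and in another in TGFBRi rats (90.2%). In it 45.1% of all genes passed, 22.7% lower.

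In venular endothelium-like cells CSF3 fell from 31, 68.5 and 14.2 UMIs per 10000 to 6.32 to 9.99 (median 8.63), without overlap (17.7% of all genes passed lower, −2.38, SE 0.31, adjusted p = 0.000101 by edgeR). Without the second vehicle rat, the one at 68.5, CSF3 stood at −1.64 (adjusted p = 0.000297). The share of CSF3 UMIs of a gland that these cells held was 27.5% (17.2 to 41.8%) in TGFBRi rats, and the class made up 2.85 to 3.43% of the cells of vehicle glands (median 3.41) and 1.19 to 3.25% of those of TGFBRi glands (median 2.43). CXCL1 fell from 71.3 to 219 to 47.2 to 61.6 (−1.52, adjusted p = 0.000338). CXCL6 had 181 UMIs in the vehicle cells of this class and 0 in 1482 cells of the 6 TGFBRi rats, at least 76.4-fold lower against a floor of 3 UMIs over the group. Of the 181 UMIs 169 came from 1 vehicle rat, and without it the bound is 7.72-fold. In vascular endothelium-like cells, where 15.0% of all genes passed lower, CSF3 fell by 2.28 (adjusted p = 0.0044), and stood at −1.24 without the second vehicle rat (adjusted p = 0.0692).

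Macrophage-like cells kept CXCL2 and CXCL1 as the members with the most UMIs in both arms. CXCL2 went from 149, 248 and 185 to 96.4 to 120 UMIs per 10000 (−1.14, SE 0.16, adjusted p = 0.00432 by edgeR), CXCL1 from 109, 170 and 125 to 60.6 to 84.1 (−1.26, adjusted p = 0.00356) and CXCL3 from 28.6 to 125 to 13.2 to 17.8 (−2.37, adjusted p = 0.00356). None of these overlapped, and 4.38% of all genes passed lower. Without the second vehicle rat, the one at 125, CXCL3 stood at −1.50 (adjusted p = 0.000814 by edgeR). The class joined 2 clusters, and the one led by PF4 and C1QA held 20.1 to 84% of it in vehicle and 19.3 to 48.7% in TGFBRi rats. In that cluster CXCL1 measured 138 to 322 and 135 to 173, and CXCL3 31.7 to 221 and 27.9 to 47.4, which overlapped, and in the other, led by MMP12, 34.9 to 62.1 and 14.4 to 25.4, and 12.8 to 27 and 1.22 to 3.03, without overlap. Fibroblast-like cells, with 15.3% of genes passing lower, had the largest CXCL1 change outside the lymphoid classes, from 155, 152 and 54.1 to 17.5 to 37.5 (−2.22, SE 0.27, adjusted p = 0.000232). Pericyte-like cells had CXCL1 at 42.8 to 211 and 33.5 to 51.3, which overlapped (17.4% of all genes passed lower, −1.81, adjusted p = 0.00094).

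Sorted ACI cells went the other way. Of 20 tests in 4 classes 18 passed an adjusted p of 0.1 by edgeR, 17 of them higher after TGFBRi (13.8% of all tests passed higher) and 1 lower (13.1%). The rats did not overlap in 14 tests higher (6.61% of all tests) and 1 lower (35.4%). In luminal progenitor-like cells, where 14.8% of all genes passed higher, CXCL1 rose from 94.2, 126 and 66.5 to 188, 199 and 197 UMIs per 10000 (1.37, SE 0.22, adjusted p = 0.00167), and CXCL2 from 33, 38.3 and 17 to 67.6, 77.6 and 78.3 (1.69, adjusted p = 0.00122). CXCL3 rose from 0.259 to 0.910 to 1.77 to 2.95 (2.51, adjusted p = 0.000954) and CSF3 from 1.28, 1.44 and 0.638 to 3.58, 5.17 and 4.36 (2.34, SE 0.26, adjusted p = 0.00049). For these 4 genes all TGFBRi rats lay above all vehicle rats, while CXCL6 overlapped (1.97, adjusted p = 0.00958). CXCL3 stood at 3.12 without vehicle rat 7, and CXCL6 at 1.37 without TGFBRi rat 16, both still called. The vehicle cells of this class lay mostly in 1 cluster (85%) and the TGFBRi cells in another (96%), and the latter had CXCL2 and CXCL1 among its 10 leading genes although the members were not used to cluster.

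In mature luminal-like ACI cells, where 13.5% of all genes passed higher and 12.3% lower, CXCL1 and CXCL2 rose (0.57 and 1.74, adjusted p = 0.0221 and 0.00159 by edgeR), CXCL3 stood at −0.16 (adjusted p = 0.808, and 0.64 without vehicle rat 7), and CXCL6 fell from 0.159, 0.169 and 0.0582 to 0.0195 to 0.0283 (−2.23, SE 0.37, adjusted p = 0.00283). In basal-like cells, where 16.3% passed higher, CXCL1 rose from 5.87, 6.91 and 8.19 to 9.95, 8.38 and 13 (0.82, adjusted p = 0.00561) and CSF3 from 0.0697 to 0.178 to 0.209 to 0.348 (1.29, adjusted p = 0.00507). CXCL2 (0.72, adjusted p = 0.0561) and CXCL3 (2.04, adjusted p = 0.0295) also passed, but not without TGFBRi rat 16 (0.57 and 1.43, adjusted p = 0.183 and 0.121 by edgeR), and CXCL3 stood at 3.29 without vehicle rat 7. The vehicle cells of this class lay mainly in 3 clusters (35.8, 31.8 and 28.8%) and the TGFBRi cells mainly in 3 others (40.2, 36.1 and 17.9%). The bulk basal sort of ACI rats at the same time had CSF3 at −1.63, given above. Its difference from the single-cell value was not tested. Cells classed one by one, instead of by cluster, gave 8 calls in place of 18. That classing has no luminal class of both kinds, so that the counts are not like for like.

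Sorted SD cells gave 3 calls in 20 tests, all higher and all in mature luminal-like cells, where 16.4% of all genes passed higher (14.3% over the 4 classes). CXCL1 there measured 2.69, 3.18 and 1.11 UMIs per 10000 in vehicle and 2.63 to 13.2 (median 4.03) in TGFBRi rats (1.57, SE 0.57, adjusted p = 0.0663 by edgeR), CXCL3 2.72, 1.39 and 0.984 against 1.78 to 21.4 (2.20, adjusted p = 0.0863) and CXCL6 0.0427 to 0.143 against 0.122 to 1.76 (2.56, adjusted p = 0.0742). Of the vehicle cells of this class 80.9% lay in 1 cluster, and 46.6, 26.4 and 21.2% of the TGFBRi cells in 3 others, the first of which had CXCL3 among its leading genes. All 3 genes overlapped, and the highest TGFBRi value was that of rat 14 in each. Without rat 14 they stood at 0.99, 1.04 and 1.49 (adjusted p = 0.0617, 0.0921 and 0.0891), and leaving out any 1 vehicle rat left no call. All 20 log2 fold changes were above 0 (15 of 20 without rat 14) and none of the 20 tests was without overlap (25.6% of all tests were). In luminal progenitor-like cells CXCL1 measured 70.7, 67.9 and 33.3 in vehicle and 30.1 to 136 (median 72.3) in TGFBRi rats (0.78, adjusted p = 0.255). CXCL6 and CSF3 had lower medians in TGFBRi rats there (0.0581 against 0.156 and 0.615 against 1.02) although their fitted changes were above 0 (0.39 and 0.54, adjusted p = 0.798 and 0.583). Without rat 14 they stood at −1.3 and −0.32 (adjusted p = 0.0623 and 0.548 by edgeR), so that CXCL6 then passed lower. One cluster of this class, led by CXCL2, CXCL3, CXCL1 and CSF3, had 96% of its cells from 1 library.

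**Figure D4:**
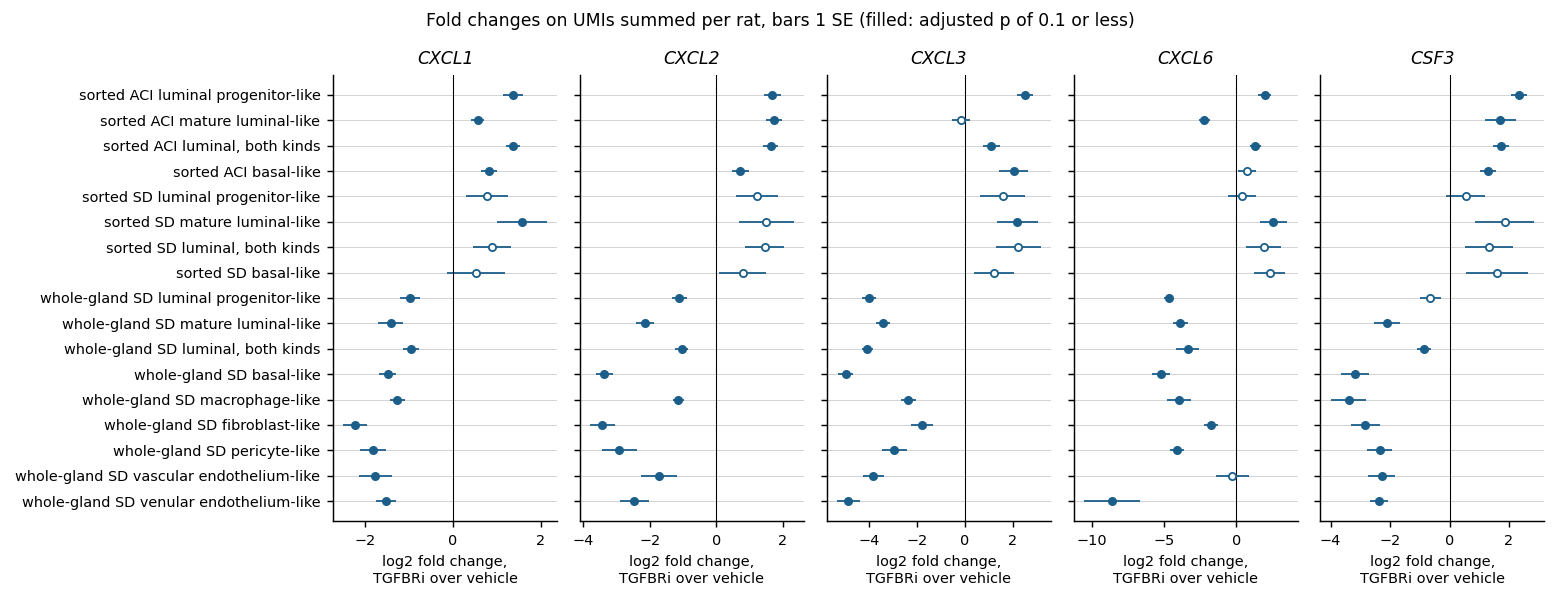
Log2 fold changes of TGFBRi over vehicle on UMIs summed per rat, with bars of 1 SE and filled points for an adjusted p of 0.1 or less, in classes of the 3 single-cell experiments. Points of the whole-gland classes lie below 0 and those of the sorted ACI and SD classes mostly above 0, with CXCL6 in mature luminal-like ACI cells at −2.23 as an exception. The CXCL6 point of venular endothelium-like cells, where TGFBRi rats held 0 UMIs, depends on the prior count of the fit.

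**Figure D5:**
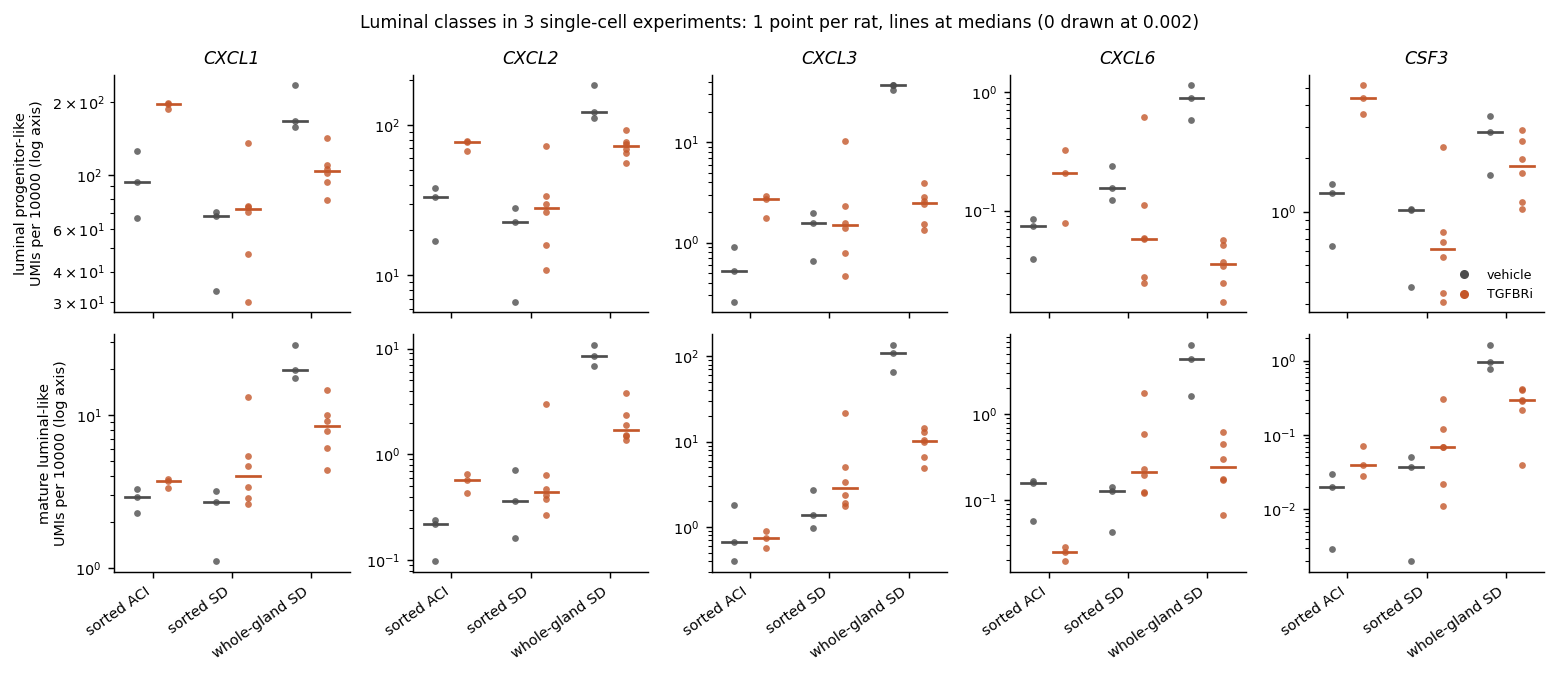
UMIs per 10000 UMIs (log axis) in luminal progenitor-like (top) and mature luminal-like cells (bottom) of the 3 single-cell experiments, with 1 point per rat and lines at medians. Vehicle CXCL3 lies at 33.6 to 37.0 in luminal progenitor-like cells of whole glands and under 2 in both sorted experiments.

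The sorted and whole-gland SD experiments shared strain, dose and time. Sorted cells passed through CD24 and CD29 staining and a 3′ kit, and whole-gland cells were captured unsorted with a 5′ kit, so that levels were not compared between them by a test. The authors also removed sorted cells with a PTPRC read or fewer than 2 keratin reads, and did not do so for whole glands. CXCL3 in luminal progenitor-like cells of vehicle rats was 0.651 to 1.96 UMIs per 10000 when sorted and 33.6 to 37.0 in whole glands, while CXCL1 was 33.3 to 70.7 and 158 to 235. The 11 immediate early genes in this class summed to 97 to 139 UMIs per 10000 in vehicle and 62.2 to 87.3 in TGFBRi rats when sorted from SD rats, to 127 to 192 and 118 to 184 in whole glands, and to 246 to 307 and 152 to 203 when sorted from ACI rats. Preparation, kit, this cell filter and the direction of the treatment effect changed together, and cannot be told apart for the 2 SD experiments.

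Unnamed and mixed cells, among them the cluster led by IL1B, G0S2, S100A9 and S100A8, had no treatment test for any gene. Of the other genes of the pathway, the receptors were rarely tested in the named classes. CXCR2 and CSF3R were tested in macrophage-like cells alone among the whole-gland classes (0.07 and −0.24, neither called), and CXCR1, CXCL5 and PPBP in none. A list of 8 cytokines was also read (IL1A, IL1B, TNF, IL6, IL17A, LIF, CSF1 and CSF2). Of its 83 whole-gland tests, on 7 of the genes, 37 passed lower and 0 higher by edgeR. Over all genes 10.8% of tests passed lower and 9.14% higher. CSF2 passed lower in 10 of 14 classes, CSF1 in 9 of 16, IL6 in 8 of 15 and LIF in 7 of 15. Of the inducing signals named above, IL1A passed lower in 2 of 6 and IL1B, a main inducer of CXCL1, in 1 of 16. IL17A passed lower in 0 of 1, and TNF was tested in no class. CSF2 fell by 5.37 in basal-like cells (adjusted p = 0.000436), and IL6 by 2.18 in fibroblast-like cells (adjusted p = 0.000116), on the log2 scale.

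The NF-κB feedback genes (7 genes) passed lower in 33 and higher in 8 of 119 whole-gland tests, to be read against the same shares. TNFAIP3, which dampens NF-κB signaling, passed lower in 7 classes and higher in 1, and NFKBIA lower in 6. Summed, these genes did not overlap in fibroblast-like cells (11.4 to 18.0 UMIs per 10000 in vehicle and 6.30 to 10.3 in TGFBRi rats) or in basal-like cells (23 to 25.7 and 13 to 20.8), overlapped in luminal progenitor-like cells (18.2 to 25.2 and 16.7 to 27.6), and in macrophage-like cells were higher with TGFBRi (26.1 to 34 and 35.1 to 41.9), where CXCL1, CXCL2 and CXCL3 fell. The immediate early genes passed higher in 54 and lower in 33 of 187 tests. FOSB passed higher in 14 of 17 classes, whereas IER3 passed lower in 14 and MYC in 10. In sorted ACI cells immediate early genes passed higher in 6 and lower in 20 of 44 tests. NF-κB feedback genes passed in 8 and 5 of 28 and the listed cytokines in 3 and 2 of 12. Over all genes of these cells 13.8% of tests passed higher and 13.1% lower. In sorted SD cells the counts were 1 and 9 of 44, 3 and 2 of 28, and 0 and 2 of 16, beside 14.3% and 13.4%. In bulk, 4 of the 857 tests of all these lists passed by limma, near the 0.588% of all genes.

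The genes whose levels ran most like those of a member over 17 whole-gland classes in 2 arms were listed by Pearson r over these 34 points, which share 9 libraries, among 13090 genes. CXCL1 was nearest to RAB1A (r = 0.95), IER3 (0.948), ZFAND5 (0.934), PLAUR (0.921) and ZFAND2A (0.911). CXCL2 was nearest to ARRDC4 (0.854), CD14 (0.849), CXCL16 (0.827), FTH1 (0.824) and ZSWIM4 (0.823). CXCL3 and CXCL6 were nearest to each other (0.875), and both had PLAU and KIF1B among their 5 nearest genes. CSF3 was nearest to RND1 (0.886), SPTLC2 (0.881) and FLT1 (0.848), the latter a receptor of endothelial cells. Between members r was 0.82 for CXCL1 and CXCL2, 0.75 for CXCL1 and CSF3, and 0.49 for CXCL3 and CSF3.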

How the data were processed

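For bulk RNA-seq, the authors aligned reads with STAR 2.5.1b to rn6, counted them with HTSeq and deposited DESeq2 1.30.1 normalized values, a signal per gene rather than read counts. Dividing a sample by its smallest step returned whole reads for 100.0% of 2526805 nonzero values (tolerance 0.001). For 15 samples the step lay within 0.02 of 1, where it is less certain. Rows of unassigned reads in the adult and E2 files (23.1 to 42.5% of a sample) were left out. For single cells, the deposited values were raw UMI counts from Cell Ranger 4.0.0 (sorted) or 7.0.0 (whole gland), already filtered by the authors.

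Bulk comparisons used limma 3.58.1 on log2(value + 1) (robust, with a mean-variance trend), with every group of a fraction in the same model, a minimum of 10 for the sum of a gene, and a Benjamini-Hochberg adjusted p of 0.05 over all genes. Parts of 1 rat were averaged. Cells were clustered by Leiden (leidenalg 0.10.2, resolution 0.8, 20 neighbours, 30 components, 2000 variable genes) without the members and named from markers. UMIs summed per rat and class (at least 10 cells, genes with at least 10 UMIs) were compared by edgeR 4.0.16 (quasi-likelihood, TMM) at an adjusted p of 0.1. DESeq2 1.42.0, edgeR on recovered reads, other scalings and filters and leaving out each rat were alternatives, and the fits were tested on simulated data. Genes named besides the 5 members came from the marker and pathway lists, called or not, or were leading genes of a cluster. Others were the 5 nearest by r, neighbours on the chromosome, or PTPRC as a check of cell type. The members and lists were chosen with earlier results of these data known. No doublet caller was run, and an alternative left out the 5% of cells with the most UMIs.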

Additional observations from a re-analysis of the deposited data

Results flagged for a closer look

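In 177 groups of 4 to 6 rats the highest or lowest rat was set against the others, and 19 had one that stood apart, where chance gives about 1 in 20. In bulk, in normalized counts, CXCL6 of young SD basal TGFBRi rats reached 97.7 in 1 rat (others 68 to 70.9), CXCL2 of young SD CD45+ vehicle rats fell to 2535 in 1 rat (others 6244 to 7463), and CXCL2 of adult parous basal vehicle rats reached 378 in 1 (others 61.2 to 77.4). CXCL6 in that last group was 0 in 1 rat (others 4.03 to 5.45), and CXCL3 of adult parous luminal vehicle rats reached 3365 in 1 (others 2176 to 2321). In E2 rats CSF3 of CD45+ cells with an empty implant was 150 in 1 vehicle rat (others 355 to 420), and CXCL6 of luminal cells with E2 was 1248 in 1 tumor-bearing vehicle rat (others 66.5 to 110).

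In sorted SD cells of TGFBRi rats, in UMIs per 10000, rat 14 stood highest for CSF3 in basal-like cells (0.366, others 0.0110 to 0.0496), CXCL2 in mature luminal-like cells (3.00, others 0.268 to 0.641), CXCL3 in pericyte-like cells (0.252, others 0), CSF3 in pericyte-like cells (1.01, others 0 to 0.00788) and CXCL3 in vascular endothelium-like cells (0.187, others 0), and rat 12 for CSF3 in fibroblast-like cells (0.0941, others 0). In whole glands of TGFBRi rats, rat 1 stood highest for CXCL1 in basal-like cells (37.9, others 20.4 to 24.7), CXCL6 in basal-like cells (0.0288, others 0 to 0.00583) and CXCL1 in vascular endothelium-like cells (54.8, others 15.1 to 22.1). Rat 2 stood lowest for CXCL2 in fibroblast-like cells (0.112, others 0.390 to 0.544) and CSF3 in mature luminal-like cells (0.0390, others 0.217 to 0.416), and highest for CXCL6 in vascular endothelium-like cells (0.126, others 0 to 0.00427).

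Log2 fold changes of TGFBRi over vehicle lay on opposite sides of 0 in sorted ACI and whole-gland SD cells of the same class, with every TGFBRi rat beyond every vehicle rat in each. In luminal progenitor-like cells the values were 1.37 and −0.98 for CXCL1, 1.69 and −1.11 for CXCL2 and 2.51 and −4.01 for CXCL3. In mature luminal-like cells they were 0.57 and −1.41 for CXCL1 and 1.74 and −2.14 for CXCL2. In basal-like cells they were 0.82 and −1.48 for CXCL1, 0.72 and −3.37 for CXCL2, 2.04 and −4.99 for CXCL3, 0.74 and −5.22 for CXCL6, and 1.29 and −3.18 for CSF3. Of these, CXCL6 in sorted ACI basal-like cells was not called, and the clusters of that class held 0 to 0.00383 UMIs per 10000 of it. CXCL2 and CXCL3 in the same cells lost their calls without TGFBRi rat 16 (0.57 and 1.43), and CXCL3 was 3.29 without vehicle rat 7. In whole-gland basal-like cells CXCL6 was −6.3 without TGFBRi rat 1 and −4.46 without the second vehicle rat. The differences were not tested, and strain, sorting, the authors' cell filter and kit differ between the experiments. Within SD rats, 20 of 20 log2 fold changes were above 0 in sorted cells (15 of 20 without TGFBRi rat 14) and 80 of 81 below 0 in whole glands, which was not tested either.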

How the results depend on the processing

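The count of tests of a member called in bulk, 1, stayed at 1 with a pseudocount of 5, without the filter on low values and with TMM scaling, and was 0 by edgeR, 5 by DESeq2, 2 with only the groups compared, and 0 to 3 when 1 rat was left out (3 without the first tumor-bearing TGFBRi rat of the NMU basal sort). The cause of these moves was not tested. The 0 calls for differences of effect and for vehicle rats held in every alternative run. In single cells 94 tests of a member in a class were called, and 69 to 100 under the alternatives, and 80 to 96 when 1 rat was left out. Whole-gland calls, 73 in all, then numbered 59 to 74 (59 without the second vehicle rat). Sorted SD calls ranged from 0 to 5. Cells classed one by one have no luminal class of both kinds and no B-like clusters kept apart. Counts under that alternative are therefore not like for like. In sorted ACI cells calls were also fewer in the classes that both classings share. Without TMM the median of all genes moved by −0.41 to −0.22 in sorted classes and −0.03 to 0.28 in whole-gland classes (log2), and no called member changed sign. With a replicate block on the rat name the bulk count was 1, and with one on whole-gland rats 1, 2 and 4 the single-cell count was 89. CSF3 in luminal progenitor-like cells was then called (−1.03, adjusted p = 0.0640 by edgeR) and CSF3 in macrophage-like cells was not (−2.94, adjusted p = 0.233). Correlations of same-named rats were −0.44 to 0.25 in adult and −0.23 to 0.36 in whole-gland samples. Those of other pairs were −0.28 to 0.44 and −0.54 to 0.52. Whether same-named rats shared more than a number was not tested. Bulk groups of 2 to 4 rats and CXCL6 near 0 limit what could be detected.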

Other observations

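Macrophage-like cells of whole glands were of unequal CXCL content. In a cluster led by PF4 and C1QA (627 vehicle and 603 TGFBRi cells) CXCL2 had a median over rats of 424 UMIs per 10000 in vehicle rats (203 to 425) and 224 in TGFBRi rats (185 to 246). In a cluster led by MMP12 and C1QC (555 and 1203 cells) it had a median of 69.9 (67.2 to 98.1) and 37.1 (28.2 to 45.8). The first cluster thus lay above the second in each arm for CXCL2, as it did for CXCL1 (medians of 303 and 145 against 47.2 and 18.1) and CXCL3 (171 and 36.9 against 13.9 and 2.45). Over all rats of both arms, an unnamed cluster of 1632 cells led by SLPI, CFP and LYZ2 held 41.8 of CXCL2 and 16.9 of CXCL3.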
